A study of Mus musculus with 6 samples.

Results

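The 10 genes described here encode the machinery of V(D)J recombination: the recombinase genes Rag1 and Rag2, the terminal transferase gene Dntt, and 7 genes of non-homologous end joining, Dclre1c, Lig4, Xrcc4, Nhej1, Prkdc, Xrcc5 and Xrcc6. They were chosen by name as genes of the proteins that cut, process and rejoin antigen receptor gene segments, and all 10 were found among the 43430 genes of the count table. RNA was sequenced in bulk from thymocytes carrying both CD4 and CD8 (DP thymocytes), sorted to a purity above 98% per the labels. The KO group held 3 samples from Mettl14fl/fl mice carrying CD4-Cre, and the WT group held 3 samples from littermate controls, all on the C57BL/6 strain. Cre driven by the CD4 promoter begins to act around the DP stage. Ages, the floxed exons and whether the controls carried floxed alleles or Cre were not stated, and no label says whether each sample was a separate animal, so p-values measure only the spread between these samples. Mettl14 is the RNA-binding partner of the methyltransferase that deposits N6-methyladenosine (m6A) on mRNA.

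V(D)J recombination assembles T and B cell receptor genes from separate segments. The Rag1 and Rag2 proteins cut beside recombination signal sequences and leave hairpin-sealed coding ends, which are opened by Artemis (Dclre1c) together with the kinase DNA-PKcs (Prkdc). Ku70 (Xrcc6) and Ku80 (Xrcc5) bind the broken ends, terminal deoxynucleotidyl transferase (Dntt) adds untemplated nucleotides, and Xrcc4, DNA ligase IV (Lig4) and the XLF protein (Nhej1) complete the joint. DP thymocytes use this pathway to rearrange the T cell receptor alpha locus, where segment choice depends on how long recombination continues.

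The 6 libraries held 29500254 to 33377056 counts in genes. Of 13039 genes tested, edgeR's quasi-likelihood test with Benjamini-Hochberg adjustment called 5 at an adjusted p under 0.05, of which 1 was higher in KO (0.00767% of tested genes) and 4 were lower in KO (0.0307%). Mettl14 had 42.2, 40.3 and 36.4 CPM (counts scaled to TMM-normalized library size) in KO, against 52.1, 58.8 and 55.8 CPM in WT, with no overlap and a log2 difference of -0.49 (adjusted p = 0.289 in edgeR and 0.0043 in DESeq2). All 10 DP thymocyte markers were detected, with a summed level of 12453.3 to 13409.9 CPM in KO and 12288.5 to 13848.9 CPM in WT. On the first principal component, which carried 37.9% of the variance, KO libraries lay between 8.52 and 32.2 and WT libraries between -38.9 and -2.36, with WT replicate 1 the farthest out.

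The upstream sequences of the recombinase genes and Dntt are printed because transcription of these genes, unlike that of the general end-joining genes, is restricted to developing lymphocytes. Each window is the 250 bases before the RefSeq start, 5′ to 3′ along the gene, on build GRCm38.p6. Capitals mark matches on either strand to CANNTG (the E box), TGTGGT (the Runx core), CCAAT, and AACNG (the Myb core).
Rag1, chr2:101649533-101649782, minus strand: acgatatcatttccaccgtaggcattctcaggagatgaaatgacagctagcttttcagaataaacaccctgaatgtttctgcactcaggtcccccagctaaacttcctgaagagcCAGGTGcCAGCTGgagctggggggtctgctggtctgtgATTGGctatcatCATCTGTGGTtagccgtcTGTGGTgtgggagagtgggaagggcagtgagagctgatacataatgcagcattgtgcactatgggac
Rag2, chr2:101624462-101624711, plus strand: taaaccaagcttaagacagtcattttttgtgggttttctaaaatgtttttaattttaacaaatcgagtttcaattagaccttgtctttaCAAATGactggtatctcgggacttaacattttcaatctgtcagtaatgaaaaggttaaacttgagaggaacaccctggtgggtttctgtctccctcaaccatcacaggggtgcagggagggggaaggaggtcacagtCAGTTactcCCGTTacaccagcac
Dntt, chr19:41029025-41029274, plus strand: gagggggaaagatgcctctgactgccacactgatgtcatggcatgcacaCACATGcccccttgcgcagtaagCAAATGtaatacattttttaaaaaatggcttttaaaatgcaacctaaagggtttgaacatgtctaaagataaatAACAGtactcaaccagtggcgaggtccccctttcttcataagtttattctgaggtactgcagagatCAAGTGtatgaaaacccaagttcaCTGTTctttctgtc

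The Rag1 window held an E box 135, 128 and 85 bases upstream of the start, TGTGGT at 81 and 67 bases, and CCAAT on the other strand at 97 bases; the E box at 85 bases overlaps the first TGTGGT. Rag2 had an E box at 161 bases and AACNG at 24 and 15 bases, and Dntt had E boxes at 201, 178 and 38 bases and AACNG at 104 and 14 bases. Among 32851 RefSeq promoter windows of the same length, CANNTG was found in 66.2%, AACNG in 74.2%, CCAAT in 33.8% and TGTGGT in 14.0%. The Foxo site GTAAACA, found in 3.17% of all windows, and TATAAA, found in 12.4%, had no match in the windows of the 9 members with an entry in the table. A match is a description of the letters only. The GC content was 50.8% for Rag1, 41.2% for Rag2 and 41.6% for Dntt, beside a median of 52.4% for all windows.

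None of the 10 genes passed the test between KO and WT, and the KO and WT values overlapped for every member. Of all tested genes, 12.6% showed no overlap between the groups, so 0 of 10 lies near the share over all genes. Over the whole table, 0.0383% of tested genes were called. DESeq2, which called 0.678% of the genes it gave an adjusted p, and limma-voom, which called 0.0537%, also called 0 of the 10, and 0 of the 10 reached an unadjusted p under 0.05, a mark that 6.72% of all tested genes passed with edgeR. All 10 passed the filter on low counts. The log2 fold change was above 0 for 7 members and below 0 for 3, with a median of 0.09, beside a median of -0.004 and 48.9% above 0 for all tested genes. Dntt and Xrcc6, the members closest to 0, changed sign under other settings. The plot of CPM by library and the plot of fold changes with their intervals show these values.

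**Figure D1:**
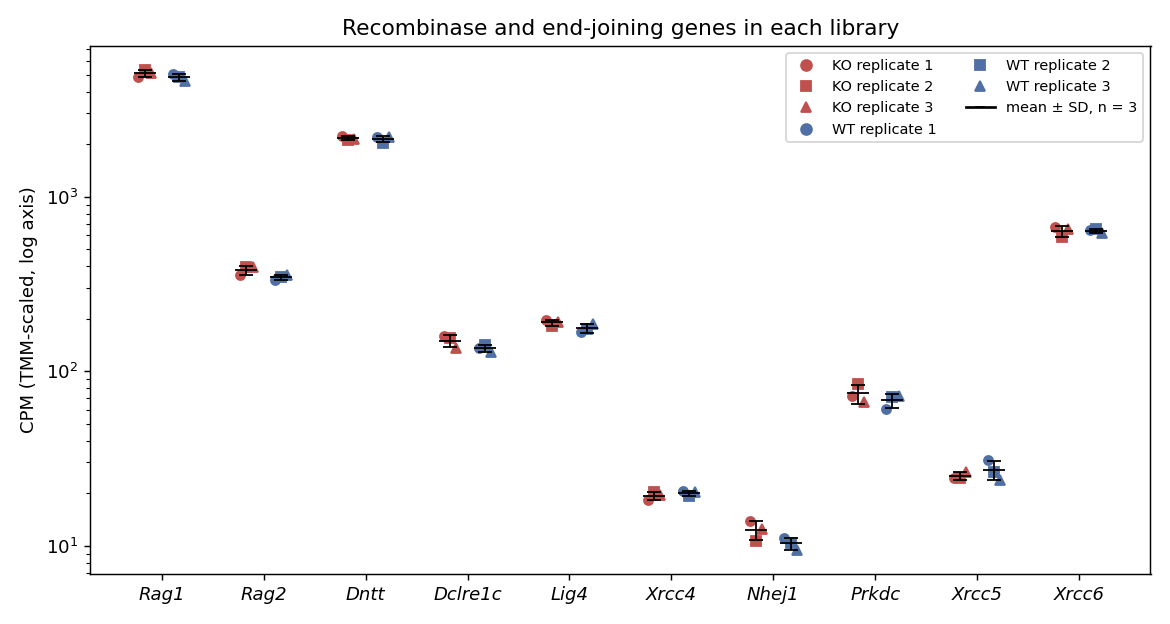
CPM of each of the 10 genes on a log axis, with 3 KO libraries (red, left) and 3 WT libraries (blue, right), and the mean ± SD of each group. Levels span from about 10.3 CPM for Nhej1 to 4834.6 CPM for Rag1 in WT, and the points of the 2 groups overlap for every gene.

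**Figure D2:**
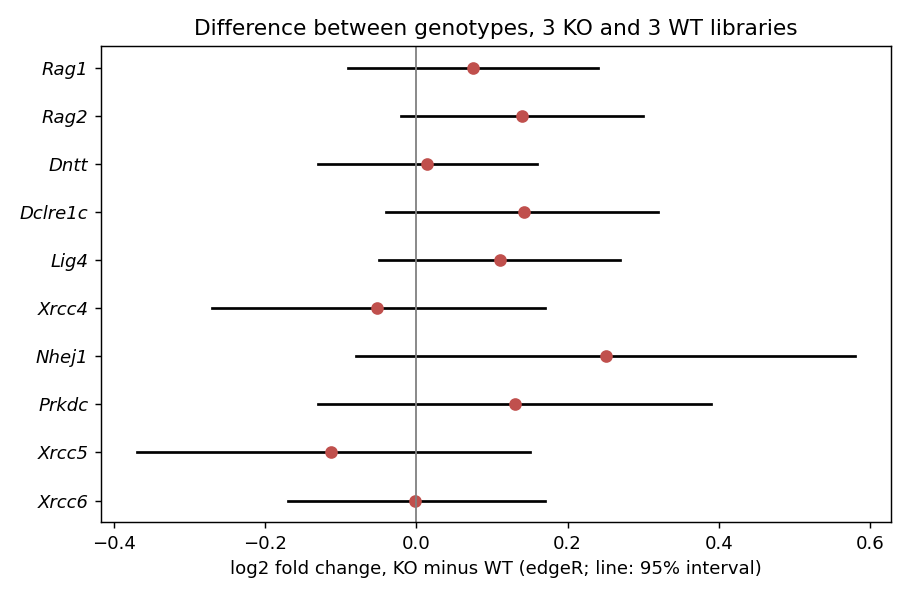
The log2 fold change of KO over WT for each gene from edgeR, with its 95% interval. Every interval includes 0, and the widest is that of Nhej1, from -0.08 to 0.58.

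Rag1, the catalytic subunit of the recombinase, had 4842.6, 5307.8 and 5127.0 CPM in KO libraries, against 5066.8, 4847.7 and 4589.4 CPM in WT libraries. The lowest library was WT replicate 3 and the highest KO replicate 2, and the KO and WT values interleaved. The log2 fold change was 0.07 with a standard error of 0.07 (95% interval -0.09 to 0.24, edgeR adjusted p = 0.85), so a rise above 1.18-fold or a fall below 0.941-fold lay outside the interval. It was 0.05 without WT replicate 3 and 0.11 without KO replicate 1. Rag1 was one of the 3 most counted genes in each library, with 134348 to 173138 counts, so counting error was 0.273% or less. The annotation places Rag1 on chromosome 2 from 101638282 to 101649501 on the minus strand of mm10.

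Rag2, the cofactor that binds methylated histone tails through its PHD finger, lies 5753 bases from Rag1 on the opposite strand, from 101624718 to 101632529. It had 353.5, 393.0 and 394.0 CPM in KO, against 332.0, 347.6 and 355.4 CPM in WT. KO replicates 2 and 3 were above every WT library, while KO replicate 1 was under WT replicate 3. The mean was 380.2 ± 23.1 CPM in KO and 345.0 ± 11.9 CPM in WT (SD, n = 3 each), a 1.10-fold difference with a 95% interval of 0.986 to 1.23. Rag2 had the lowest unadjusted p of the 10 genes with edgeR, 0.0787, and an adjusted p of 0.762.

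Dntt, which lies on chromosome 19 from 41029275 to 41059523 on the plus strand, had 2229.0, 2118.7 and 2132.9 CPM in KO, against 2189.9, 2039.4 and 2189.5 CPM in WT. Both groups covered nearly the same range. The log2 fold change was 0.01 (95% interval -0.13 to 0.16, edgeR adjusted p = 0.975), and the KO mean was 2160.2 ± 60.0 CPM beside a WT mean of 2139.6 ± 86.8 CPM (SD, n = 3 each). Dntt ranked between 12 and 18 by count in the 6 libraries.

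Dclre1c encodes Artemis, the nuclease that opens the hairpins, and lies on chromosome 2 from 3424131 to 3464130. It had 158.3, 154.0 and 136.1 CPM in KO, against 135.6, 141.4 and 129.3 CPM in WT. KO replicates 1 and 2 stood above the WT libraries and KO replicate 3 lay among them, with a log2 fold change of 0.14 (95% interval -0.04 to 0.32, edgeR adjusted p = 0.769). Prkdc, the gene of the kinase that activates Artemis, lies on chromosome 16 from 15637866 to 15842235 and had 72.2, 84.7 and 66.6 CPM in KO, against 60.6, 71.1 and 72.4 CPM in WT. Its highest library was KO replicate 2 and its lowest WT replicate 1, and the log2 fold change was 0.13 (95% interval -0.13 to 0.39, edgeR adjusted p = 0.84). Without KO replicate 2 that value was 0.04, and without KO replicate 3 it was 0.21.

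The Ku genes bind DNA ends as a heterodimer. Xrcc5 on chromosome 1, from 72307421 to 72394952, had 24.3, 24.3 and 26.6 CPM in KO, against 30.8, 26.6 and 23.9 CPM in WT. WT replicate 1 was the highest library and WT replicate 3 the lowest, so the WT range contained every KO value. The log2 fold change was -0.11 (95% interval -0.37 to 0.15, edgeR adjusted p = 0.857) and was -0.01 without WT replicate 1 and -0.19 without WT replicate 3. Xrcc6 on chromosome 15, from 81987835 to 82040085, was far more abundant and had 670.8, 584.2 and 651.8 CPM in KO, against 642.5, 650.7 and 615.9 CPM in WT. KO replicates 1 and 2 were its highest and lowest libraries, and the means were 635.6 ± 45.5 CPM in KO and 636.4 ± 18.2 CPM in WT (SD, n = 3 each; edgeR adjusted p = 0.996).

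Lig4, the ligase that seals the break, lies on chromosome 8 from 9970020 to 9977686 and had 196.6, 181.8 and 192.0 CPM in KO, against 166.9, 174.5 and 186.7 CPM in WT. Of the KO libraries, replicates 1 and 3 were above every WT library and replicate 2 was not (log2 fold change 0.11, 95% interval -0.05 to 0.27, edgeR adjusted p = 0.781). Xrcc4, the scaffold that holds the ligase, lies on chromosome 13 from 89774027 to 90089608 and had 18.2, 20.2 and 19.6 CPM in KO, against 20.5, 19.2 and 20.3 CPM in WT. The groups overlapped, and the log2 fold change was -0.05 (95% interval -0.27 to 0.17, edgeR adjusted p = 0.93), or -0.006 without KO replicate 1 and -0.08 without WT replicate 2.

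Nhej1, which bridges ends with Xrcc4, was the least counted member, with 316 to 418 counts in KO and 278 to 380 in WT. It had 13.9, 10.7 and 12.4 CPM in KO, against 11.1, 10.4 and 9.5 CPM in WT. KO replicates 1 and 3 were above every WT library and KO replicate 2 lay between WT replicates 1 and 2. Its fold difference was the largest of the 10, 1.19, with the widest interval, 0.946 to 1.5 (edgeR adjusted p = 0.771). Its log2 fold change was 0.25, and 0.16 without KO replicate 1. Counting error alone reached 6.0% at its lowest count. GENCODE M21 tags Nhej1, on chromosome 1 from 74967139 to 75125200, as a fragmented locus with transcripts of 1053 and 65 bases, so its counts cover only the annotated fragments.

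The authors' deposited table comes from a comparison they describe as paired, without the labels giving the pairs. In the authors' deposited table the 10 genes had log2 fold changes from -0.10 for Xrcc5 to 0.26 for Nhej1, with adjusted p-values between 0.736 (Dclre1c) and 0.999. The authors' deposited table called 0.762% of the genes for which it gave an adjusted p, and called 0 of the 10.

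Partners that act as a complex were also compared as ratios of CPM, by exact two-sided permutation of the log2 ratios over the 6 libraries, for which the smallest possible p is 0.1. The Rag1 to Rag2 ratio was 13.7, 13.5 and 13.0 in KO and 15.3, 13.9 and 12.9 in WT (p = 0.5, 0.8 after Benjamini-Hochberg adjustment over 4 ratios, exact permutation). The Xrcc4 to Lig4 ratio was 0.0924, 0.111 and 0.102 in KO and 0.123, 0.110 and 0.109 in WT (exact permutation p = 0.3, adjusted 0.8). Both ratios overlapped between the groups. The Xrcc5 to Xrcc6 ratio was 0.0362, 0.0416 and 0.0408 in KO and 0.0479, 0.0408 and 0.0389 in WT (exact permutation p = 0.6, adjusted 0.8), and the Dclre1c to Prkdc ratio was 2.19, 1.82 and 2.04 in KO and 2.24, 1.99 and 1.79 in WT (exact permutation p = 0.9, adjusted 0.9). WT replicate 1 was the highest library for all 4 ratios.

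Levels were compared between genes as CPM per kilobase of merged exons. Dntt, with 942.5 ± 26.2 in KO and 933.5 ± 37.9 in WT, and Rag1, with 770.6 ± 35.5 in KO and 731.6 ± 36.2 in WT, led the order (SD, n = 3 each). Xrcc6 followed with 142.0 ± 10.2 in KO and 142.2 ± 4.06 in WT, then Rag2 with 111.0 ± 6.75 in KO and 100.8 ± 3.48 in WT. The WT means of the rest were 33.8 for Lig4, 14.5 for Dclre1c, 10.6 for Xrcc5, 9.25 for Nhej1, 5.16 for Prkdc and 4.75 for Xrcc4. Neighbours in this order were separated in every WT library except for Xrcc5 and Nhej1, and Prkdc and Xrcc4, whose WT libraries overlapped. Subunits of one complex were far from equal at the RNA level. Rag1 was 6.95 ± 0.183 times Rag2 in KO and 7.28 ± 0.61 times in WT, and Xrcc6 was 14.5 ± 1.12 times Xrcc5 in KO and 13.5 ± 1.44 times in WT (SD, n = 3 each).

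**Figure D3:**
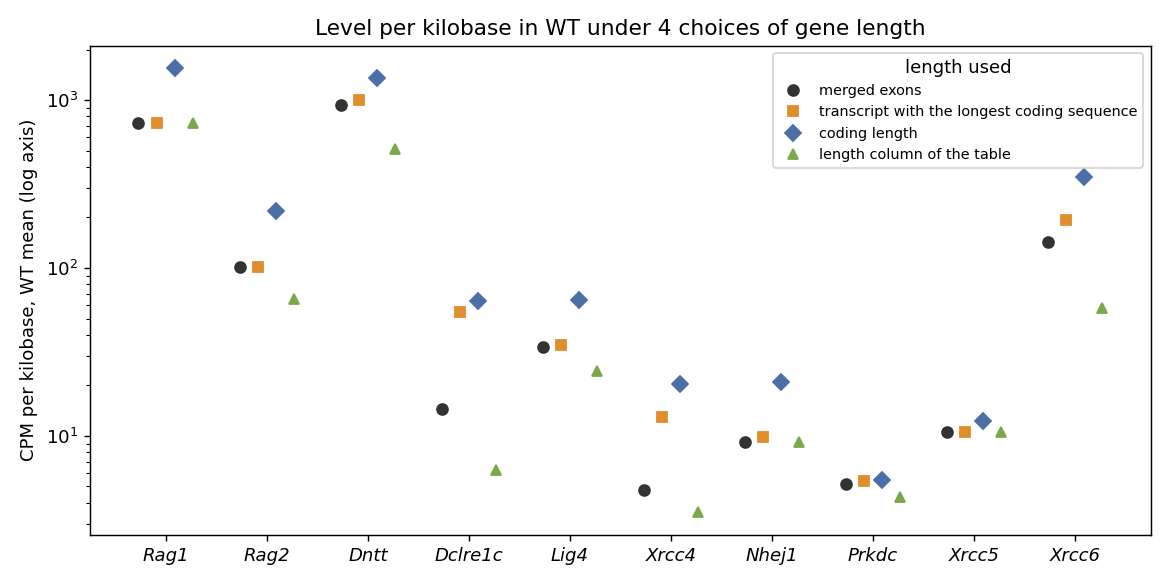
Mean CPM per kilobase in WT for each gene on a log axis, with gene length taken as merged exons, as the transcript with the longest coding sequence, as that coding sequence alone, or from the length column of the deposited table. Dclre1c ranges from 6.23 with the table's length to 64.0 with the coding length, and Rag1 leads with the coding length (1549.6) and the table's length (731.6).

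The choice of length moved this order. In 51.6% of the 19686 genes with exons shared between transcripts, the deposited length column equalled the sum over GENCODE M21 transcripts. It equalled the merged exons in 0.5% and neither length in the rest, and its annotation version was not given. With that column Rag1 led at 731.6 in WT, ahead of Dntt at 509.9, and the excess of Xrcc6 over Xrcc5 shrank to 5.9 times in KO and 5.51 times in WT. With the transcript that holds the longest coding sequence Dntt led at 1004.5 in WT, and the excess of Xrcc6 was 19.7 times in KO and 18.4 times in WT. With the coding length alone Rag1 led at 1549.6 in WT, ahead of Dntt at 1345.6, and the excess of Xrcc6 was 30.6 times in KO and 28.5 times in WT. Xrcc6 exceeded Xrcc5, and Rag1 exceeded Rag2, under all 4 lengths.

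Genes that share exon bases with a member were examined because reads from shared bases cannot be assigned with certainty. The strand setting of the counting is not given. Genes that start within 500 bases of a member on the other strand were examined as well. The RefSeq start of Rag1 is base 101649532, which is the 5′ base of B230118H07Rik in the count table, whereas Rag1 in the count table starts at 101649501. B230118H07Rik spans the whole Rag locus and shares 80 exon bases with Rag1 on the same strand and 208 with Rag2 on the opposite strand. It had 15.9, 24.7 and 15.7 CPM in KO, against 49.1, 24.1 and 15.1 CPM in WT, so WT replicate 1 stood far above every other library and the rest overlapped. Its log2 fold change was -0.65 (edgeR adjusted p = 0.78) and -0.07 without WT replicate 1. In WT replicate 1 the log2 CPM of Rag1 lay 0.03 above the mean of the 6 libraries, and that of Rag2 lay 0.12 below it, the lowest of its 6 values.

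Suv39h2, a histone methyltransferase gene that shares 357 exon bases with Dclre1c on the opposite strand, had 13.3, 10.4 and 13.9 CPM in KO, against 7.58, 12.7 and 14.5 CPM in WT. Again WT replicate 1 was the extreme library, here the lowest. Desi1, which shares 344 exon bases with Xrcc6, had 511.8, 500.9 and 511.1 CPM in KO, against 480.7, 489.9 and 471.6 CPM in WT, and Abhd13, whose start lies 21 bases from that of Lig4, had 92.6, 93.2 and 88.8 CPM in KO, against 88.3, 83.7 and 83.4 CPM in WT. Both were higher in every KO library, by 0.08 and 0.11 on the log2 scale, and neither passed the test (edgeR adjusted p = 0.804 and 0.78). A lack of overlap between the groups, in either direction, was seen in 12.6% of all tested genes. Tmem167, which shares 112 exon bases with Xrcc4, and the replication helicase gene Mcm4, 466 bases from Prkdc, had log2 fold changes of 0.13 and -0.09 (edgeR adjusted p = 0.792 and 0.926). Of 22 nearest or overlapping neighbours that are not themselves members, 14 were tested and 0 were called by edgeR. At an unadjusted p under 0.05 there were 0, a mark that 6.72% of all tested genes passed.

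**Figure D4:**
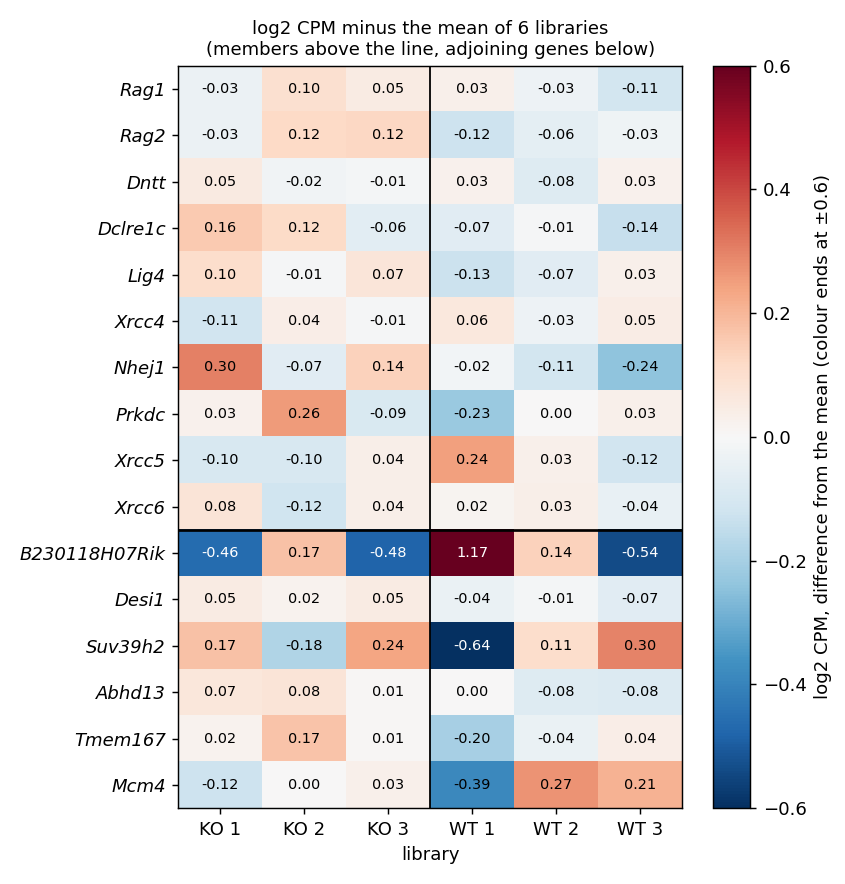
Difference of log2 CPM from the mean of the 6 libraries, for the 10 genes above the line and for adjoining genes below it, with KO libraries left of WT libraries. Deviations of the 10 genes lie between -0.24 and 0.30, and the widest in the panel is B230118H07Rik in WT replicate 1.

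KO replicates 1, 2 and 3 lay above the mean of the 6 libraries for 6, 5 and 6 genes, and WT replicates 1, 2 and 3 for 5, 3 and 4. The median deviation over the 10 genes was 0.04, 0.015 and 0.036 on the log2 scale in KO replicates 1, 2 and 3. It was 0.0, -0.032 and -0.035 in WT replicates 1, 2 and 3. KO replicate 2 and WT replicate 1 lay closer together than the pooled SD of these medians, 0.0167, and the difference was not tested. WT replicate 1 was the lowest library for Rag2, Lig4 and Prkdc and the highest for Xrcc5 and Xrcc4. Proliferation markers summed to 4726.5 to 6122.9 CPM in KO and to 3395.4 CPM (WT replicate 1) to 6860.6 CPM in WT. Their part in these values was not tested.

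m6A is deposited mainly within a short consensus that includes GGACT. That motif was counted in each gene's transcript with the longest coding sequence, and it marks letters, not measured methylation. Rag1 held 9 copies (1.36 per kilobase), Rag2 held 3 (0.876 per kilobase) and Dntt held 4 (1.88 per kilobase). Across the 10 genes the median was 1.25 per kilobase, from 0.405 in Dclre1c to 1.9 in Nhej1, beside a median of 1.05 over 11432 tested genes, of which 90.8% held at least 1 copy. After the coding sequence there were 3 copies in Rag1, 1 in Rag2 and 0 in Dntt, which are not shown. The last copy in each coding sequence, in capitals, is shown with its flanks on GRCm38, because m6A is enriched near stop codons.
Rag1, chr2:101641697-101641717, minus strand: ggcattgaGGACTctctggaa
Rag2, chr2:101630457-101630477, plus strand: gatcctggGGACTccactccc
Dntt, chr19:41059111-41059131, plus strand: ctgGGACTGGACTacattgaa

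Counted from its first base to the last coding base, the copy lay 34 bases from the end of the coding sequence in Rag1, 463 bases in Rag2 and 31 bases in Dntt, where 2 copies of the motif are joined and the second is counted. None of the 3 genes passed the test between KO and WT.

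Other genes of the pathway were described from 6 lists, and 0 of their tested genes were called by edgeR, DESeq2 or limma-voom. Genes given with values were picked for the lowest p of their list. Of all tested genes, 6.72% reached an unadjusted p under 0.05 with edgeR and 12.6% showed no overlap between the groups. Among 11 accessory factors of end joining, 5 were above 0 and 6 below, with a median log2 fold change of -0.03. Poll, the gap-filling DNA polymerase lambda, was the only accessory factor with an unadjusted p under 0.05. It had 1.49, 1.46 and 1.18 CPM in KO, against 2.34, 2.09 and 1.71 CPM in WT, without overlap, a log2 fold change of -0.57 with a standard error of 0.24 (unadjusted p = 0.0451, adjusted p = 0.733 with edgeR). It rested on 38 to 80 counts per library. Cyren, an inhibitor of end joining in the later cell cycle, differed by 0.15 on the log2 scale (edgeR adjusted p = 0.804), by 0.08 without WT replicate 1 and by 0.28 without WT replicate 3.

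Among 15 tested genes of break sensing and signalling, 9 were above 0 and 6 below, with a median of 0.02. Shld3 was not analysed here. The kinase gene Dyrk1a had 258.4, 230.5 and 240.0 CPM in KO, against 200.7, 207.7 and 225.2 CPM in WT, without overlap (log2 fold change 0.20, unadjusted p = 0.026, adjusted p = 0.713 with edgeR). Mad2l2, a shieldin subunit that limits resection of ends, had 12.8, 11.7 and 12.1 CPM in KO, against 13.7, 15.9 and 12.9 CPM in WT, again without overlap (log2 fold change -0.22, edgeR adjusted p = 0.773, or -0.13 without WT replicate 2). Neither gene passed the test, and 12.6% of all tested genes showed no overlap.

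Counts for the pathways that compete with classical joining stand beside the 48.9% of all tested genes above 0. For alternative end joining, 1 of 6 genes was above 0 and 5 below, with a median of -0.09, and Parp1, which senses strand breaks, and Xrcc1, the scaffold for DNA ligase III, had log2 fold changes of -0.14 and -0.11 (edgeR adjusted p = 0.823 and 0.854). Parp1 moved to -0.07 without KO replicate 1 and -0.27 without KO replicate 3, and Xrcc1 to -0.04 without WT replicate 2 and -0.19 without WT replicate 1. For homologous recombination, 3 of 12 were above 0 and 9 below, with a median of -0.06 and a range of -0.23 to 0.21. No gene of either list reached an unadjusted p under 0.05 with edgeR.

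Of 21 transcription factors and related regulators known to act on the Rag locus or on thymocyte enhancers, 20 were tested and Gfi1b was not. In this list 14 were above 0 and 6 below, with a median of 0.02, a range of -0.35 to 0.23 and 0 at an unadjusted p under 0.05 with edgeR. Ikzf1 (Ikaros) averaged 1010.6 ± 93.9 CPM in KO and 907.4 ± 27.3 CPM in WT (SD, n = 3 each; log2 fold change 0.15, edgeR adjusted p = 0.767), and Gata3 averaged 88.1 ± 5.41 CPM in KO and 94.7 ± 5.57 CPM in WT (log2 fold change -0.10, edgeR adjusted p = 0.812). Neither difference passed the test. Among 10 protein partners of the recombinase, 7 were above 0 and 3 below, with a median of 0.05. Ddb1, an adaptor of the Cul4 ubiquitin ligase, had 435.8, 430.4 and 455.2 CPM in KO, against 480.2, 460.5 and 463.6 CPM in WT, without overlap (log2 fold change -0.09, edgeR adjusted p = 0.795). Such a lack of overlap was seen in 12.6% of all tested genes. Hmgb1, a DNA-bending cofactor of Rag cleavage, differed by -0.08 on the log2 scale (edgeR adjusted p = 0.841).

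**Figure D5:**
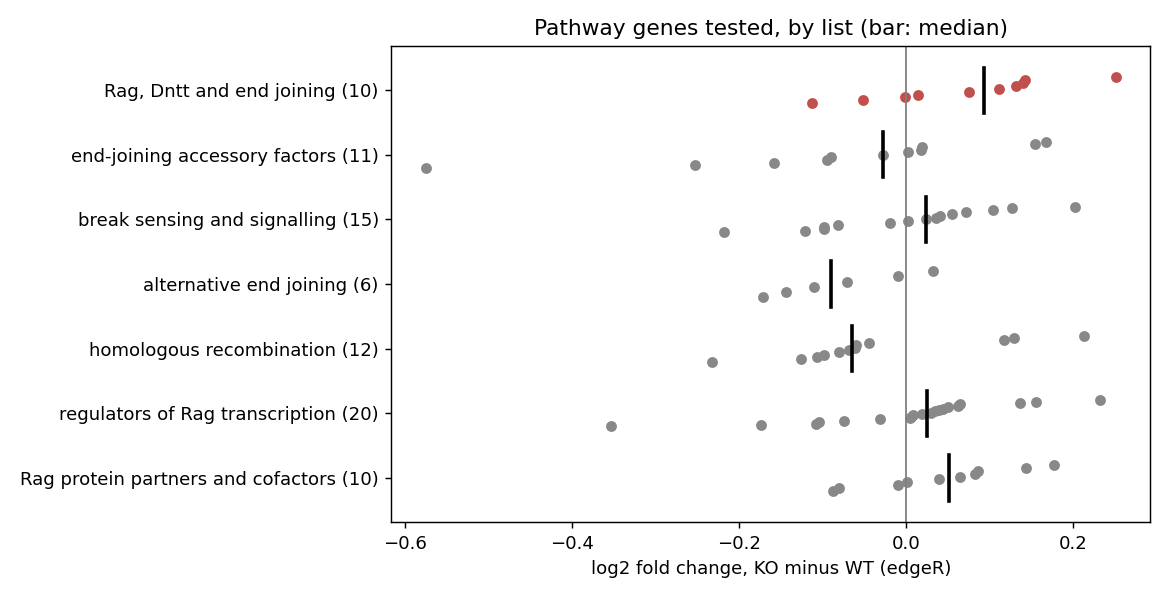
The log2 fold change of KO over WT for every tested gene of each list (number tested in parentheses), with the 10 recombinase, Dntt and end-joining genes in red and the median as a bar. Medians lie between -0.09 and 0.09, and Poll, at -0.57, is the farthest from 0.

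The genes whose log2 CPM followed each lymphoid gene most closely across the 6 libraries were sought among 6163 genes averaging 5 or more on the log2 CPM scale. Rag1 was followed by Rab5b, Auh and Klhl24, with root mean square differences of 0.0178, 0.0241 and 0.0267 on the log2 scale, beside a median of 0.118 for all genes compared. Rag2 was followed by Fam102a, Tmem33 and Fam98a (0.0209, 0.0251 and 0.0265, median 0.128), and Dntt by Il17ra and Rab5c among others (0.0159 and 0.0206, median 0.102). Rag1, Rag2 and Dntt varied over a range of only 0.21, 0.25 and 0.13 on the same scale. The closest genes lie below the median by the way they were picked, so these differences only describe and were not tested.

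Earlier thymocytes and B cell progenitors also express the recombinase, so their markers are given beside these values. For scale, 6.72% of all tested genes reached an unadjusted p under 0.05 with edgeR, and 12.6% showed no overlap between the groups. Markers of double-negative and immature thymocytes summed to 189.5 to 237.9 CPM in KO and 162.3 to 170.6 CPM in WT, without overlap, with 5 of 8 at an unadjusted p under 0.05 and 0 of 8 called by edgeR. Most of each sum came from Notch3 and Ptcra, which averaged 136.5 and 51.0 CPM in KO and 98.7 and 39.9 CPM in WT. Of these 5, Notch3, Ptcra, Tcrg-C1 and Tcrg-C2 were higher in KO and Cd44 was lower in KO. DESeq2 called Tcrg-C1 (adjusted p = 0.0105) and Tcrg-C2 (adjusted p = 0.00301). Il2ra, Kit and Il7r overlapped between the groups (edgeR unadjusted p = 0.382, 0.418 and 0.834), and the mean of Kit was lower in KO. B cell markers summed to 24.0 to 33.2 CPM in KO and 19.7 to 27.9 CPM in WT, with 3 of 5 tested at an unadjusted p under 0.05. Mature single-positive markers summed to 300.8 to 326.2 CPM in KO and 294.9 to 303.5 CPM in WT, with 1 of 7 (Bcl2, higher in KO) at that mark. Myeloid markers summed to 89.7 to 112.2 CPM in KO and 86.4 to 91.1 CPM in WT, with 2 of 5 tested (Cd74 and H2-Ab1, higher in KO) at that mark. Stromal markers summed to 4.38 to 5.72 CPM in KO and 3.36 to 4.39 CPM in WT, with 1 of 2 tested (Epcam, higher in KO) at that mark and Krt5, Foxn1 and Pdgfra at 0 in all libraries, and red cell markers summed to under 1 CPM in both groups. The part of these cell types in the levels of the 10 genes was not tested, and in bulk samples fewer cells of a type and less RNA per cell cannot be told apart.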

How the data were processed

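RNA was measured in 6 libraries of sorted DP thymocytes, prepared with the Illumina TruSeq kit per the labels' protocols. The submitters' processing notes name Trimmomatic 0.33, STAR 2.5.2, HTSeq, DESeq2 and build mm10. An annotation version, a counting mode and a strand setting were not given in the sources used here. The authors deposited raw gene counts by library and a combined count table with a length column. They also deposited a normalized signal (counts divided by size factors), and a table of log2 fold changes, standard errors, test scores and p-values from their own fit, which they named as paired.

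Groups followed the genotype labels. Counts were tested with edgeR 4.0.16 in R 4.3.3 (filterByExpr, TMM, two-sided quasi-likelihood test with group as the only term, Benjamini-Hochberg adjustment over 13039 genes, threshold 0.05). CPM are TMM-scaled. A standard error is the size of the log2 fold change over the root of its F value. Reads assigned to no feature (12.3% to 15.2%), to several genes (0.653% to 0.701%) or to several positions (22.6% to 23.9%) were kept out of library sizes. Every pair of replicates differed by more than counting noise (lowest chi-square per degree of freedom, 17.3). DESeq2 1.42.0, limma-voom 3.58.1, other scalings and filters, blocks and leaving out each library were alternatives. The edgeR step was tested on simulated data.

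The members, lists and neighbours were chosen with earlier results of these data known. Named genes are the members, 2 genes of lowest p per list, the 3 genes most like Rag1, Rag2 and Dntt, and neighbours, narrowed after seeing values to those sharing exon bases or starting head to head within 500 bases. Some genes that this rule names are not reported here. Merged exon lengths from GENCODE M21 were chosen after the table's length column was seen to add up transcripts in many genes. Of 43430 gene identifiers, 42464 had a name and 42462 matched GENCODE M21. Promoter sequences are from RefSeq (GRCm38.p6), where 9 of 10 members had an entry.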

Additional observations from a re-analysis of the deposited data

How the results depend on the processing

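No member and no gene of the 6 pathway lists was called under any of 12 alternatives, and 112 of 120 member values kept their direction. The other 8 were Dntt with upper-quartile factors (-0.009), Xrcc6 with DESeq2 (0.005) or no filter on low counts (0.011), and leave-one-out values of these genes, which ranged from -0.019 to 0.038 for Dntt and from -0.039 to 0.063 for Xrcc6. Genes called over the whole table numbered 5, against 105 with DESeq2, 30 with no filter, and 4 to 23 when 1 library was left out, with 14 without KO replicate 2, 8 without WT replicate 1 and 23 without WT replicate 3; the cause was not tested. The members' median of 0.093 was 0.071 with upper-quartile factors, under which the median of all genes was -0.027, and 0.058 to 0.096 with 1 library left out (0.058 without KO replicate 2, 0.064 without WT replicate 1). Leaving out 1 library gave -0.119 to 0.307 for Suv39h2, -0.27 to 0.03 for Mcm4 and -0.068 to 0.094 for the log2 difference in the Dclre1c to Prkdc ratio, which was -0.05 without KO replicate 1.

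Same-numbered KO and WT samples did not consistently deviate together, with correlations of -0.149, 0.0796 and 0.192 for replicates 1, 2 and 3. Samples of unlike number gave -0.282 to 0.181, so the value for replicate 3 was the highest of all. The numbers were not taken as pairs. With the replicate number as a block, edgeR called 5 genes and 0 members, and the members' median was 0.093. A block setting replicate 3 apart, known from earlier work on these data, also gave 5 and 0, with a median of 0.094.

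With 1 library left out, other values also moved by over 1.5 times. Ikzf1 moved to 0.093 without KO replicate 3 and Gata3 to -0.057 without WT replicate 1. Hmgb1 moved to -0.032 without WT replicate 2 and Tmem167 to 0.067 without WT replicate 1. The log2 difference in the Rag1 to Rag2 ratio was -0.002 without WT replicate 1 and -0.122 without WT replicate 3. That of Xrcc5 to Xrcc6 was -0.013 without WT replicate 1 and -0.164 without WT replicate 3. That of Xrcc4 to Lig4 was -0.096 without KO replicate 1. Low counts limit Poll (38 to 80 per library) and kept Gfi1b from being tested. Coding lengths came from GENCODE M21 in place of a reference protein.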
